A study of Mus musculus with 6 samples.

Results

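The genes described here are 10 genes of endoplasmic reticulum (ER) stress and protein folding, found by their symbols among the 35434 rows of the deposited expression table. They are the 3 ER stress sensors Atf6, Ern1 and Eif2ak3, the transcription factor Xbp1, and the 6 ER chaperones and folding factors Hspa5, Hsp90b1, Calr, Canx, Pdia4 and Dnajb9. They were measured by RNA sequencing in bone marrow-derived macrophages (BMDMs), cells cultured from the femoral marrow of C57BL/6 mice over 7 days with macrophage colony-stimulating factor. The 3 Ctrl libraries came from BMDMs without zoledronic acid (ZA), and the 3 ZA libraries from BMDMs at 12 h after ZA was added. ZA is a nitrogen-containing bisphosphonate that binds bone mineral and blocks farnesyl diphosphate synthase in the mevalonate pathway, and the comparison asks how it alters gene expression in macrophages. The study obtained its wild-type C57BL/6 mice as females at 6 weeks of age, and the age at which marrow was taken and the ZA concentration used for these libraries are not given in the sources used here. The sources also do not say whether the libraries of a group came from separate mice or separate cultures, so the p-values measure only the spread between these libraries.

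Secreted and membrane proteins enter the ER unfolded and are folded there with the help of chaperones. When unfolded proteins accumulate, 3 membrane sensors, IRE1 (encoded by Ern1), PERK (Eif2ak3) and ATF6, start the unfolded protein response. IRE1 splices the messenger RNA of Xbp1, PERK phosphorylates the translation factor eIF2α, and ATF6 is cut in the Golgi apparatus so that a transcription factor is released. In many cell types ATF6 and XBP1 then raise the transcription of chaperone genes, with Hspa5, which encodes the HSP70 chaperone BiP, as the usual readout. Macrophages are secretory cells, and IRE1 and XBP1 are known to take part in their cytokine production after Toll-like receptor activation.

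One DNA element known to carry this response is the ER stress response element (ERSE), which is bound by ATF6 together with the factor NF-Y. Its letters, CCAAT and CCACG with 9 bases of any kind between them, were searched on both strands in the RefSeq promoters of build GRCm38.p6, each from 250 bases before to 50 bases after a gene start. An exact match was present in 39 of 32851 promoters (0.119%). Promoters of 9 of the 10 genes were matched by symbol, all but Atf6. The promoters of Hspa5, Hsp90b1, Calr and Canx each held the element, and Hsp90b1 held 2 copies. The 250 bases before the start of these genes are printed because the element sits in the promoters of the most highly expressed chaperones, and that of Pdia4 because it had the largest difference between the groups and no match. Each is written 5′ to 3′ on the strand of the gene, with the ERSE matches in capitals.
Hspa5, chr2:34771840-34772089, plus strand: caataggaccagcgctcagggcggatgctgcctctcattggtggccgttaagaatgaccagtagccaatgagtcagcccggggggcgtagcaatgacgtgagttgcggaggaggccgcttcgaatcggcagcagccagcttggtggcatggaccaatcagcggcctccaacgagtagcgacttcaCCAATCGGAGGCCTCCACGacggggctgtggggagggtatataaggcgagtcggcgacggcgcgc
Hsp90b1, chr10:86705445-86705694, minus strand: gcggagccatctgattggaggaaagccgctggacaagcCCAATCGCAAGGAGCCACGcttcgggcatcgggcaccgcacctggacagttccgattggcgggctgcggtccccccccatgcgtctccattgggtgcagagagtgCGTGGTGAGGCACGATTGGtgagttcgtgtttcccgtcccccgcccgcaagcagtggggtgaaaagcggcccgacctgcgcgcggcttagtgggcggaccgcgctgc
Calr, chr8:84846932-84847181, minus strand: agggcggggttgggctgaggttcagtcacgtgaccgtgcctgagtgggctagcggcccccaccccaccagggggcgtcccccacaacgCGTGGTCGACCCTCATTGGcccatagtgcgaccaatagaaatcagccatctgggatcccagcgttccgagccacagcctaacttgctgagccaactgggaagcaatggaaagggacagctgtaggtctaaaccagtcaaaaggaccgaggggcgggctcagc
Canx, chr11:50325674-50325923, minus strand: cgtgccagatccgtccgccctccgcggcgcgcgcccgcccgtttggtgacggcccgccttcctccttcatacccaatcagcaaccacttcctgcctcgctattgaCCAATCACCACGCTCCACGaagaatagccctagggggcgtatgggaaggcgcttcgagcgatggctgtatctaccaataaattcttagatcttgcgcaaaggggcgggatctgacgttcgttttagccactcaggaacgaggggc
Pdia4, chr6:47813513-47813762, minus strand: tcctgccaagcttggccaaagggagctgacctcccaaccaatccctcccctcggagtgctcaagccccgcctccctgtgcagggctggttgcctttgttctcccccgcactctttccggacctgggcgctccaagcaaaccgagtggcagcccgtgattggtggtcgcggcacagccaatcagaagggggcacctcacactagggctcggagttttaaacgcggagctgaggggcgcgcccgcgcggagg

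In the Hspa5 promoter the match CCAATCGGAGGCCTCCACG lay 65 to 47 bases before the gene start. The copies of Hsp90b1 lay 212 to 194 bases before the start on the strand of the gene and 107 to 89 bases before it on the other strand. The Calr match was on the other strand, 162 to 144 bases before the start, and the Canx match on the strand of the gene, 145 to 127 bases before it. The shorter elements ERSE-II (ATTGG and CCACG with 1 base between them, in 0.0365% of promoters) and the XBP1 element UPRE (TGACGTGG, in 0.676%) were in none of the 9 promoters, so that no ERSE match overlapped with either. Those of Ern1, Eif2ak3, Xbp1, Pdia4 and Dnajb9 held none of the 3 elements in this window. These matches describe the sequence only, and binding was not measured.

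**Figure D1:**
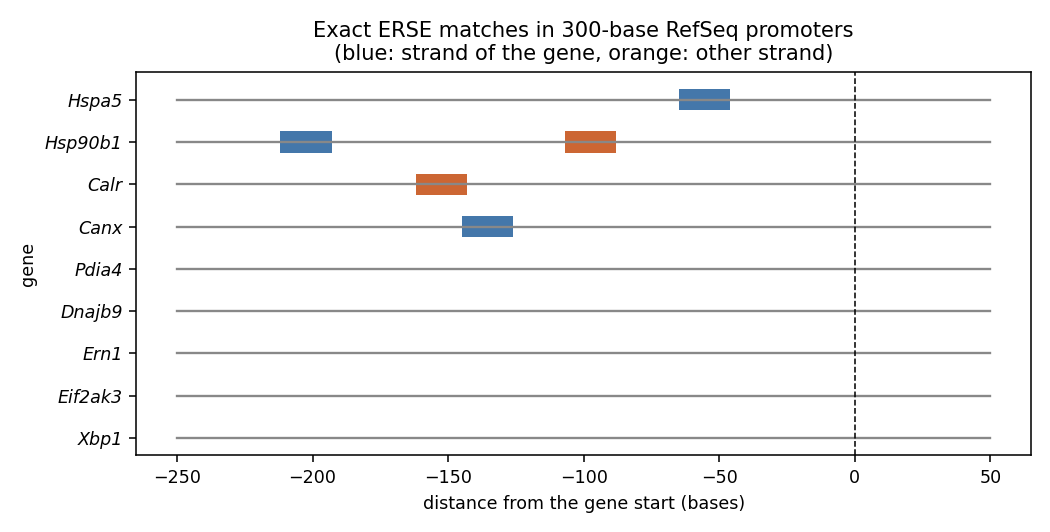
Position of exact ERSE matches, in bases from the gene start (0, dashed line), in the 300-base promoters of 9 genes, one line per gene, with bars in blue for the strand of the gene and in orange for the other strand. Hspa5, Calr and Canx have 1 bar each, Hsp90b1 has 2, and the other 5 genes have none.

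Expression is given as FPKM, fragments scaled by gene length and by the total of the library, so that levels of different genes can be set side by side. The 6 libraries had similar depth, with totals between 41230600 and 42155808 fragments, as inferred from the FPKM values. The 10 genes had between 1748 fragments (Eif2ak3 in ZA 2) and 41755 fragments (Calr in Ctrl 3), against a median of 1395 fragments per gene and library over the 9800 genes tested. The cells carried macrophage markers, as all 10 of those listed were at or above 1 FPKM on average, with Lyz2 the highest. By mean FPKM over the 6 libraries the genes stood in the order Calr (489.5), Hspa5 (284.9), Hsp90b1 (232.1), Canx (104.4), Xbp1 (73.9), Pdia4 (36.6), Dnajb9 (24.8), Atf6 (18.6), Ern1 (11.7) and Eif2ak3 (8.84). The ranges of neighbours in this order did not overlap in any case. The soluble lectin chaperone calreticulin (Calr) was thus the highest, at rank 107 of the 9800 genes, and the kinase PERK (Eif2ak3) the lowest, at rank 4973.

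In ZA-treated BMDMs the ER chaperones Pdia4, Calr, Hspa5, Dnajb9 and Hsp90b1 had mean FPKM values between 4.92% and 10.3% below those of Ctrl, while the 3 sensors, Xbp1 and Canx were within 1.34% of Ctrl. None of the 10 genes passed the test at an adjusted p-value under 0.05, from limma on log2(FPKM + 1) with Benjamini-Hochberg adjustment over all 9800 genes, and 2 of them did, lower in ZA, with limma's voom on the recovered fragments, which called 61 of 9800 genes lower (0.622%). In the former test 36 genes passed (0.367%), 16 of them lower (0.163%) and 20 higher (0.204%) in ZA. Before adjustment, p was under 0.05 for 5 of the 10 genes with ZA lower and for 0 with ZA higher, where it was so for 4.85% and 7.5% of all genes tested. The 3 ZA values lay below all 3 Ctrl values in 3 of the 10 genes, against 6.76% of all genes. The median log2 fold change was -0.05 over the 10 genes and 0.01 over all genes tested. The count of 5 fell to 2 without Ctrl 2, without ZA 1 or without ZA 2, and to 3 without Ctrl 3.

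**Figure D2:**
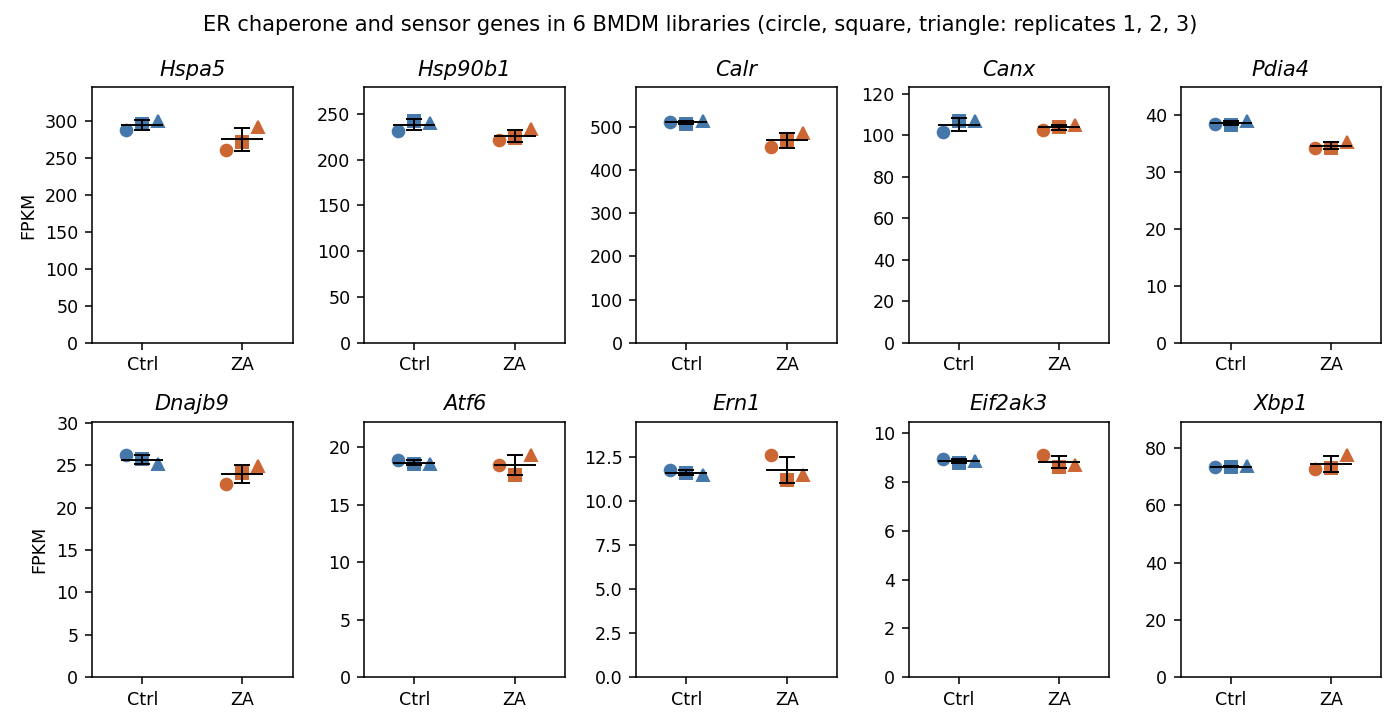
FPKM of the 10 genes in each library, with 3 Ctrl libraries in blue and 3 ZA libraries in orange, the circle, square and triangle for replicates 1, 2 and 3, the long bar for the mean and the whiskers for the SD (n = 3). Each vertical axis starts at 0. The groups lie apart for Calr, Pdia4 and Dnajb9, and overlap for the other 7 genes.

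Hspa5 encodes BiP, the HSP70 chaperone that binds unfolded chains in the ER and also holds the sensors inactive. Its FPKM was 287.9, 295.9 and 300.6 in Ctrl 1, 2 and 3, and 260.8, 271.9 and 292.3 in ZA 1, 2 and 3. ZA 1 and ZA 2 were below every Ctrl library, and ZA 3 was above Ctrl 1, so that the groups overlapped. The means were 294.8 ± 6.42 and 275.0 ± 15.96 (SD, n = 3), and the log2 fold change was -0.10 (SE 0.04, 95% confidence interval -0.19 to -0.01, limma adjusted p = 0.362, unadjusted 0.0348). Without ZA 1 the log2 fold change was -0.06.

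Hsp90b1 encodes GRP94, the HSP90 chaperone of the ER, which folds Toll-like receptors and integrins among other clients. Its FPKM was 231.1, 242.6 and 240.0 in Ctrl 1, 2 and 3, and 221.7, 223.1 and 233.9 in ZA 1, 2 and 3. ZA 1 and ZA 2 were below all Ctrl libraries, whereas ZA 3 exceeded Ctrl 1. The log2 fold change was -0.07 (SE 0.03, interval -0.14 to -0.01, limma adjusted p = 0.369), from means of 237.9 ± 6.06 and 226.2 ± 6.68 (SD, n = 3).

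Calr and Canx encode calreticulin and calnexin, the soluble and the membrane-bound lectin that retain glycoproteins with a trimmed sugar chain until they are folded. Calr FPKM was 510.2, 507.1 and 514.5 in Ctrl 1, 2 and 3, and 452.6, 466.9 and 486.0 in ZA 1, 2 and 3. All ZA libraries were below all Ctrl libraries, and the ZA libraries were spread more widely, with means of 510.6 ± 3.70 and 468.5 ± 16.7 (SD, n = 3). The log2 fold change of Calr was -0.12 (SE 0.03, interval -0.19 to -0.06, limma adjusted p = 0.113, unadjusted 0.00181). For Canx the FPKM was 101.6, 106.8 and 107.0 in Ctrl 1, 2 and 3, and 102.7, 103.7 and 104.8 in ZA 1, 2 and 3. Here the ZA values lay within the range of Ctrl. The log2 fold change of Canx was -0.02 (SE 0.03, interval -0.08 to 0.04, adjusted p = 0.814). It was -0.0434 without Ctrl 1 and between -0.0117 and -0.00579 without Ctrl 2, Ctrl 3 or ZA 1.

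Pdia4 encodes ERp72, a protein disulphide isomerase that forms and rearranges disulphide bonds in the ER. Its FPKM was 38.5, 38.2 and 39.0 in Ctrl 1, 2 and 3, and 34.2, 34.3 and 35.3 in ZA 1, 2 and 3. The ZA libraries lay close together and well below Ctrl, at means of 34.6 ± 0.631 and 38.6 ± 0.408 (SD, n = 3). With a log2 fold change of -0.15 (SE 0.03, interval -0.21 to -0.09) it had the lowest unadjusted p-value of the 10 genes (0.000300, rank 44 of 9800), and its limma adjusted p-value was 0.0668. Other settings brought chaperones past the adjusted threshold. With a filter at a mean FPKM of 5 the adjusted p-value of Pdia4 was 0.0483, where 22 of 6607 genes (0.333%) were called lower, and with limma's voom on the recovered fragments those of Pdia4 and Calr were 0.0247 and 0.0334.

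Dnajb9 encodes ERdj4, an ER co-chaperone of BiP that also brings BiP to IRE1. Its FPKM was 26.2, 25.7 and 25.1 in Ctrl 1, 2 and 3, and 22.8, 24.1 and 24.9 in ZA 1, 2 and 3. The groups did not overlap, but the gap between Ctrl 3 and ZA 3 was small beside the spread within each group. The log2 fold change was -0.10 (SE 0.04, interval -0.18 to -0.01, limma adjusted p = 0.342), and -0.06 without ZA 1. In all 5 of these chaperones ZA 1 was the lowest and ZA 3 the highest of the ZA libraries.

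The sensors had log2 fold changes within 0.02 of 0. Atf6 FPKM was 18.9, 18.5 and 18.6 in Ctrl 1, 2 and 3, and 18.5, 17.6 and 19.3 in ZA 1, 2 and 3. ZA 3 was the highest and ZA 2 the lowest of all libraries, and the log2 fold change was -0.02 (SE 0.04, interval -0.10 to 0.07, limma adjusted p = 0.896). Ern1 FPKM was 11.7, 11.6 and 11.5 in Ctrl 1, 2 and 3, and 12.6, 11.2 and 11.4 in ZA 1, 2 and 3. ZA 1 stood above every other library and the remaining ZA libraries below every Ctrl library, with a log2 fold change of 0.02 (SE 0.04, interval -0.09 to 0.12, adjusted p = 0.920). For Eif2ak3 the FPKM was 8.96, 8.79 and 8.86 in Ctrl 1, 2 and 3, and 9.10, 8.64 and 8.70 in ZA 1, 2 and 3. As for Ern1, ZA 1 was the highest library and ZA 2 the lowest, and the log2 fold change was -0.01 (SE 0.03, interval -0.09 to 0.07, adjusted p = 0.943). The direction of the log2 fold change turned for Atf6 and Eif2ak3 without ZA 2 and for Ern1 without ZA 1, to 0.02, 0.004 and -0.03.

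Xbp1 encodes the transcription factor that IRE1 activates by splicing its messenger RNA. The FPKM of Xbp1 was 73.4, 73.3 and 73.7 in Ctrl 1, 2 and 3, and 72.6, 72.9 and 77.5 in ZA 1, 2 and 3. ZA 1 and ZA 2 were slightly below Ctrl and ZA 3 above it. The log2 fold change was 0.02 (SE 0.03, interval -0.05 to 0.08, limma adjusted p = 0.858), and -0.01 without ZA 3. One FPKM value per gene does not separate spliced from unspliced Xbp1, and the activity of the sensors was not measured by these data.

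**Figure D3:**
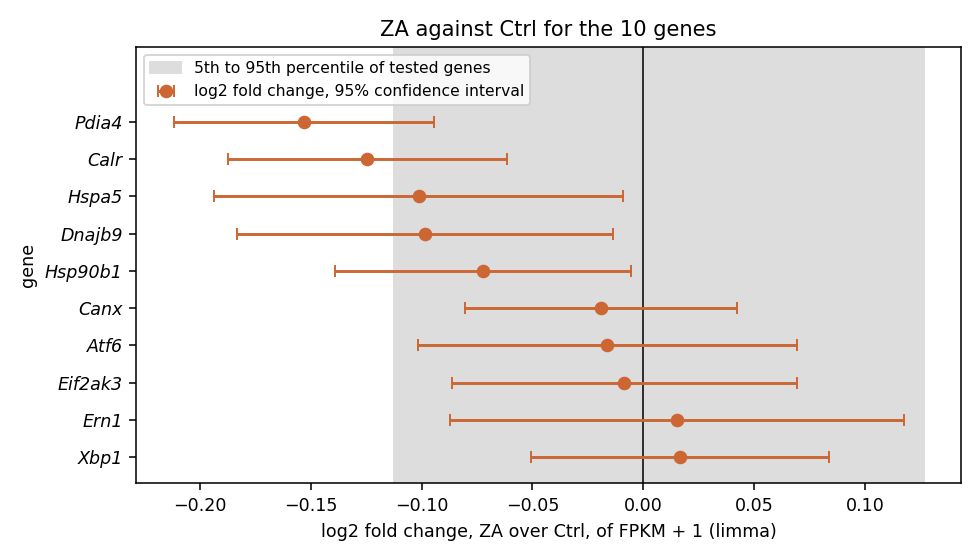
Log2 fold change of ZA over Ctrl for the 10 genes on the log2(FPKM + 1) scale, with 95% confidence intervals from limma (3 libraries per group) and the 5th to 95th percentiles of all 9800 genes tested in grey (-0.11 to 0.13). The intervals of Pdia4, Calr, Hspa5, Dnajb9 and Hsp90b1 lie below 0, and those of the other 5 genes span it.

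The profile of Hspa5 over the 6 libraries was compared with that of every gene tested, each centred on its own mean, by the root mean square difference of log2(FPKM + 1). The nearest gene was Creld2 (0.0197), an ER protein that is itself induced by ER stress, followed by Vipr1 (0.0215), Tes (0.0216), Sdf2l1 (0.0216) and Ints10 (0.0219). Sdf2l1 is a partner of ER HSP40 proteins and BiP. Of the 10 genes, Calr was at place 11 in this order, Hsp90b1 at 24, Dnajb9 at 71 and Pdia4 at 141. Canx, Atf6, Xbp1, Eif2ak3 and Ern1 followed at places 621, 1014, 1155, 3505 and 7053. These are descriptions over 6 libraries, and genes with small variation lie close to each other by this measure.

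The other ER genes were taken from 6 lists with 133 genes in all, of which 126 were tested. Of these, 87 had a lower and 39 a higher mean in ZA, where 43.1% of all genes tested had a negative log2 fold change. Unadjusted p was under 0.05 for 20 lower and 2 higher genes, against 4.85% and 7.5% of all genes tested. In limma 0 passed the adjusted threshold of 0.05, where voom on the recovered fragments gave 2, Hyou1 (adjusted p = 0.0423) and Ssr1 (0.0384), both lower in ZA. The groups lay apart with ZA lower in 27 genes and with ZA higher in 2 genes, against 6.76% and 11.4% of all genes. The median log2 fold change was -0.03.

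Among 19 other ER chaperones and co-chaperones, 14 had a lower mean in ZA, against 43.1% of all genes tested. Unadjusted p was under 0.05 for 6 of the 19 with ZA lower, against 4.85% of all genes. The median log2 fold change was -0.06. Hyou1, an HSP110-type exchange factor for BiP, was at 24.9 ± 0.833 FPKM in Ctrl and 22.3 ± 0.753 in ZA (SD, n = 3, log2 fold change -0.16, limma adjusted p = 0.134). Dnajb11, an HSP40 partner of BiP, was at 33.7 ± 0.351 and 31.2 ± 1.31 FPKM, and the secreted ER protein Manf at 77.0 ± 3.16 and 71.3 ± 2.68. In all 3 genes, which had the lowest p-values of the list, the ZA libraries were below every Ctrl library. That was so for 6 of the 19 genes, against 6.76% of all genes. The count of 6 by unadjusted p fell to 2 without Ctrl 2 and to 4 without ZA 1 or ZA 2.

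Of 18 disulphide isomerases and oxidases 13 had a lower mean in ZA, against 43.1% of all genes tested. Unadjusted p was under 0.05 for 4 of the 18 with ZA lower, against 4.85% of all genes. The median was -0.04. The isomerases Txndc5 (32.9 ± 0.681 and 30.5 ± 0.164 FPKM), P4hb (208.3 ± 1.66 and 198.0 ± 3.43) and Pdia3 (222.5 ± 3.74 and 210.2 ± 8.02) led this list, with log2 fold changes of -0.11, -0.07 and -0.08 and limma adjusted p-values of 0.156, 0.236 and 0.334. Their groups lay apart, as was so with ZA lower for 4 of the 18 genes, against 6.76% of all genes. The count of 4 by unadjusted p was 2 without ZA 2.

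Among 19 genes of N-glycosylation and the calnexin cycle 18 had a lower mean in ZA and 3 had an unadjusted p-value under 0.05, with a median of -0.05. These were the cargo receptor subunit Mcfd2 (56.9 ± 1.12 and 54.1 ± 0.165 FPKM) and the oligosaccharyltransferase subunits Rpn1 (67.2 ± 0.332 and 63.7 ± 2.02) and Dad1 (21.2 ± 0.257 and 19.95 ± 0.670), all with ZA below Ctrl in every library. In 6 of the 19 genes every ZA library was below Ctrl, against 6.76% of all genes. The count of 3 by unadjusted p was 1 without Ctrl 3. Of 23 genes of protein entry into the ER 20 had a lower mean, against 43.1% of all genes tested, with a median of -0.04. Unadjusted p was under 0.05 for 5 of the 23 with ZA lower, against 4.85% of all genes. Ssr1, a subunit of the translocon-associated complex, was at 15.2 ± 0.0899 and 13.9 ± 0.231 FPKM (limma adjusted p = 0.142), and the signal peptidase subunits Spcs2 and Spcs3 at 49.6 ± 1.01 and 46.4 ± 0.263, and 36.6 ± 0.870 and 34.2 ± 0.818. The count of 5 was 3 without Ctrl 2 or Ctrl 3.

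ER-associated degradation and the signalling genes of the unfolded protein response had lower and higher means in more even numbers. In degradation 17 of 30 genes had a lower and 13 a higher mean, and among genes with an unadjusted p under 0.05 the lectin Edem1 was lower (54.1 ± 1.58 and 51.4 ± 1.41 FPKM), while the ubiquitin ligase Rnf5 (42.0 ± 0.737 and 44.1 ± 0.878) and the deglycosylase Ngly1 (9.06 ± 0.158 and 10.1 ± 0.840) were higher. These counts, 1 lower and 2 higher of 30, stand against 4.85% and 7.5% of all genes tested. Each of these counts changed without single libraries, to 0 lower without Ctrl 1 or Ctrl 3, 2 lower without ZA 1, 0 higher without Ctrl 2 or Ctrl 3, and 1 higher without Ctrl 1, ZA 1, ZA 2 or ZA 3. Of 19 signalling genes 7 had a lower and 12 a higher mean, and the median of 0.009 was -0.003 when libraries were centred on their median, -0.0004 without Ctrl 2 and 0.0172 without Ctrl 3. Creb3l2, a relative of ATF6, was at 3.57 ± 0.186 FPKM in Ctrl and 3.05 ± 0.347 in ZA (unadjusted p = 0.0302, limma adjusted p = 0.351). It was the only 1 of the 19 signalling genes with an unadjusted p-value under 0.05, against 4.85% of all genes with ZA lower. There were 0 lower genes without Ctrl 2 or ZA 2, 2 without Ctrl 3, and 1 higher gene without Ctrl 1 or Ctrl 2. Atf4, the transcription factor downstream of PERK, was at 69.9 ± 1.93 and 72.8 ± 0.310 FPKM, with every ZA library above Ctrl (log2 fold change 0.06, limma adjusted p = 0.424). The groups lay apart with ZA higher in 1 of the 19 genes, against 11.4% of all genes. The apoptosis effector Bax was at 102.0 ± 2.75 and 106.0 ± 1.65 FPKM, with overlapping groups.

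Chaperones outside the ER were listed for comparison. Of 27 genes 14 had a lower and 13 a higher mean in ZA. Unadjusted p was under 0.05 for 1 lower and 4 higher genes, against 4.85% and 7.5% of all genes tested. The cytosolic HSP70 gene Hspa8, which has many processed pseudogenes that may share its reads, was at 673.4 ± 5.81 FPKM in Ctrl and 726.8 ± 23.5 in ZA, with a log2 fold change of 0.11 (SE 0.03, limma adjusted p = 0.141, 0.0415 with voom). Its cofactor Dnajb1 was at 9.83 ± 0.209 and 10.7 ± 0.118 FPKM, and Hspa2, another HSP70 gene, at 2.63 ± 0.311 and 3.21 ± 0.0700. All ZA libraries were above all Ctrl libraries in these 3 genes, which had the lowest p-values of the list. Over the 27 genes the groups lay apart with ZA lower in 4 and with ZA higher in 4. The shares over all genes were 6.76% and 11.4%. The count of 1 lower gene by unadjusted p was 0 without Ctrl 1, Ctrl 3 or ZA 1.

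**Figure D4:**
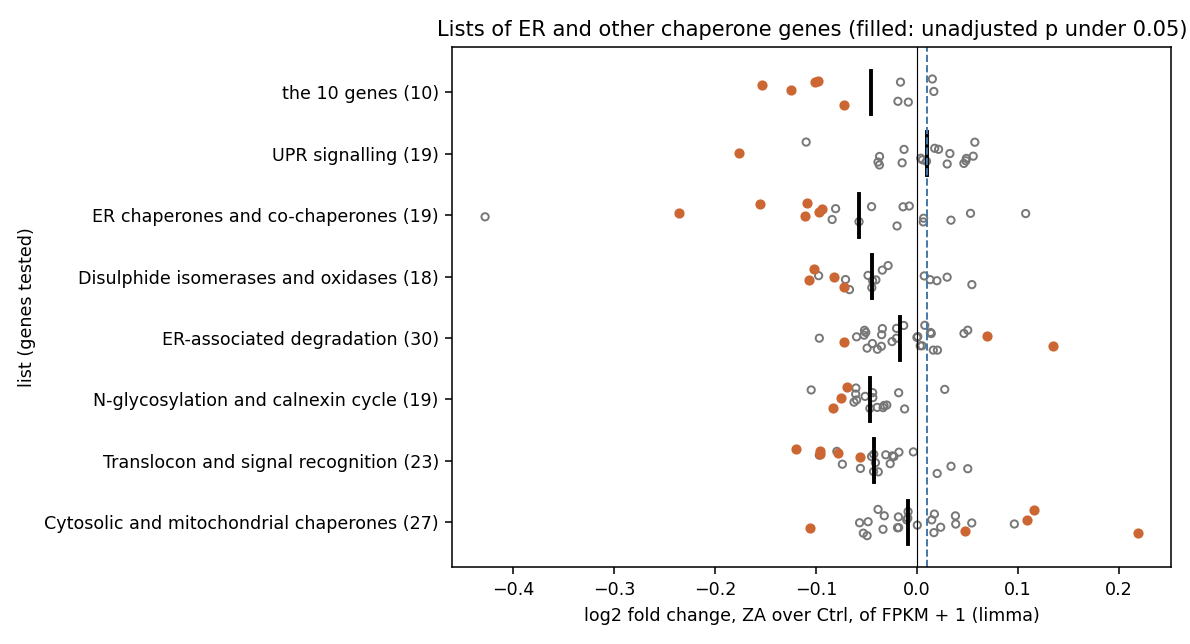
Log2 fold change of ZA over Ctrl (log2(FPKM + 1), limma, 3 libraries per group) for the 10 genes and for the tested genes of 7 lists, one point per gene, filled where the unadjusted p-value was under 0.05, with a black bar for the median of each list and a dashed line for the median of all 9800 genes (0.01). Medians of the 10 genes, ER chaperones, isomerases, N-glycosylation and protein entry lie between -0.06 and -0.04, and those of signalling, degradation and the chaperones outside the ER between -0.02 and 0.01.

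Genes that carry an exact ERSE match in a promoter were also examined as a group, chosen after the data had been seen. The table held 36 such genes, of which 13 were tested. Of these 13, 12 had a lower mean in ZA, against 43.1% of all genes tested. With ZA lower, unadjusted p was under 0.05 for 5 of the 13, against 4.85% of all genes. Without Hspa5, Hsp90b1, Calr and Canx there were 9 genes, with a median log2 fold change of -0.06. Of these 9, 8 had a lower mean and 2 an unadjusted p under 0.05. Those 2 genes were Dnajc3 and Pdia6. They and Creld2, Ero1b and Syvn1, all with a lower mean, also stand in the lists above. All of them were counted there as well, so these 9 genes are largely not separate from those lists. The BiP co-chaperone Dnajc3 was at 23.8 ± 0.701 FPKM in Ctrl and 22.3 ± 0.580 in ZA, with groups apart, and the isomerase Pdia6 at 103.0 ± 3.93 and 95.9 ± 4.80, with groups that overlapped. The presence of a match did not separate the chaperones by their difference, since Canx has one and was close to Ctrl, and Pdia4 and Dnajb9 have none within these windows. No test was made on this group.

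In bulk libraries fewer cells of a type and less RNA per cell cannot be told apart. Most markers of other cell types had lower means in ZA, but the sums of every marker list overlapped between the groups. Summed FPKM of 8 B and plasma cell markers, cells rich in ER, was 31.0 to 40.0 in Ctrl and 28.8 to 32.2 in ZA, with 7 of 8 lower in the mean. Most of this sum was Sdc1, and the B cell markers Ms4a1 and Pax5 had means of 0.0698 and 0.0146 FPKM in Ctrl, while Jchain was at 8.90 in Ctrl and 6.67 in ZA. The 12 neutrophil and progenitor markers summed to 37.7 to 53.3 in Ctrl and 33.8 to 39.0 in ZA, with 11 lower and Ly6g at 0 in all libraries. Of these, 7 were tested and all 7 were lower, with a median log2 fold change of -0.27. Unadjusted p in limma was under 0.05 for 4 of the 7, against 4.85% of all genes with ZA lower. It was so for 1 of 3 tested B and plasma cell markers and 1 of 4 stromal markers, also lower. Fibroblast and stromal markers summed to 19.0 to 33.9 and 17.1 to 24.4, with 6 of 7 lower, T cell markers to 8.57 to 9.06 and 8.32 to 9.73, with 3 of 5 lower, and macrophage markers to 23761 to 27683 and 24657 to 28175, with 9 of 10 higher. Most of the macrophage sum was Lyz2, with means of 22474 in Ctrl and 22925 in ZA. In 4 of the 10 macrophage markers every ZA library was above Ctrl, against 11.4% of all genes. Among these were Adgre1 (means of 531.8 and 580.5) and Csf1r (772.2 and 834.9). The part of these cells in the chaperone values was not tested.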

How the data were processed

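The aligner, counting program, strand setting and annotation are not given in the sources used here, and the submitters' processing notes name build mm9. The sources name a VAHTS and, in the labels, also a SMARTER library kit. FPKM values were deposited by the authors as a single table, in which 35423 of 35434 rows had lost separators between the symbol and the 6 values. A row was split where its values came out as whole fragments for one gene length and the library totals, or where only one split was possible. The totals were not given and were inferred from the values of rows with a single possible split. For 27 rows the split kept was the only likely one with a known gene symbol and 6 detected values of similar size. This restored 35233 rows, holding 99.71% of all fragments in each library, and left out 201. Of 1000 simulated rows 993 were restored exactly and 1 wrongly. These rows were drawn from restored genes under the same whole-fragment rule, so they do not measure the error in the real rows. Groups came from the sample labels.

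Values were compared with limma 3.58.1 in R 4.3.3 (lmFit, eBayes with a trend) on log2(FPKM + 1), two-sided, over the 9800 genes whose FPKM averaged 1 or more, and p-values were adjusted by Benjamini-Hochberg over all of them. Fold changes on this scale understate those of low genes. On simulated data 98% of 200 genes changed 2-fold among 9800 were called, along with 6 unchanged genes, and 0 were called with none changed. The simulated libraries were independent of each other. Changes as small as those of the 10 genes were not simulated, so how often such changes would be called is not known. The alternatives were a pseudocount of 0.1, no filter, a filter at 5 FPKM, median centring, quantile normalization, no variance trend, the replicate block, voom on the recovered fragments, and leaving out each library. The 10 genes and all lists were chosen with earlier results of these data known. Named besides the 10 are the 3 genes of lowest p in each list, markers, and the 5 genes nearest to Hspa5 in profile. Dnajc3, Pdia6, Ero1b and Syvn1 were named after their values had been seen. Sec61b and Sec63 stand in a pair of lists each and were counted in both. Python 3.11.15 was used. Promoter sequences are from RefSeq (GRCm38.p6).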

Additional observations from a re-analysis of the deposited data

How the results depend on the processing

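Of 140 log2 fold changes of the 10 genes under 14 alternatives, 133 kept their direction and their side of the adjusted threshold. Without single libraries Atf6 ranged from -0.0482 to 0.0169, Ern1 from -0.0324 to 0.0469, Eif2ak3 from -0.0298 to 0.00441, Xbp1 from -0.0131 to 0.0328 and Canx from -0.0434 to -0.00579. Pdia4 passed the threshold with the filter at 5 FPKM (-0.15) and with voom (-0.16), and Calr with voom (-0.12), so that 1 and 2 of the 10 genes were then called. The 5 genes lower at an unadjusted p under 0.05 were 3 with no filter and 3 without a variance trend, and 2 to 5 without single libraries. Over all genes, 20 higher and 16 lower became 1 and 0 with no filter, 11 higher when centred, 10 and 10 with quantile normalization, 0 and 1 without a variance trend, 20 and 22 with the filter at 5 FPKM, 71 and 61 with voom, and 0 to 14 and 0 to 11 without single libraries. With the replicate block they were 41 and 37, and none of the 10 genes passed (Pdia4 at an adjusted p of 0.0508 in limma). In that fit the limma adjusted p-values of Calr, Hspa5, Hsp90b1 and Dnajb9 were 0.0609, 0.120, 0.207 and 0.299. The SE of Hspa5 was then 0.0249, against 0.0401 without the block. Same-numbered libraries deviated together with correlations across genes of 0.284, 0.0393 and 0.280, and every library correlated best with its own number. The main test did not pair them because the labels do not say that they belong together. Median log2 fold changes of the lists moved beyond the spread between replicates when centred, to -0.00283 for signalling, -0.0567 for isomerases, -0.0290 for degradation, -0.0590 for N-glycosylation and -0.0211 for chaperones outside the ER, and with quantile normalization to -0.0561 for isomerases, -0.0273 for degradation and -0.0607 for N-glycosylation. Numbers of list genes with an unadjusted p under 0.05 became, for signalling, 1 higher and 0 lower with no filter, 0 lower with the filter at 5 FPKM, and 1 higher and 2 lower with the block. For ER chaperones they became 1 higher with the block and with voom, and for isomerases 2 lower and for protein entry 3 lower without a variance trend. For degradation they became 1 higher and 2 lower with no filter, 0 higher and 3 lower when centred, 0 higher with quantile normalization, 1 higher and 0 lower without a variance trend, 2 lower with the block and 1 higher with voom. For N-glycosylation they became 5 lower with no filter, and 6 when centred and with quantile normalization. For chaperones outside the ER they became 2 lower when centred and with quantile normalization, and 0 with the filter at 5 FPKM and with the block. Without single libraries the lower genes numbered 0 to 2 for signalling, 2 to 7 for ER chaperones, 2 to 5 for isomerases, 0 to 2 for degradation, 1 to 3 for N-glycosylation, 3 to 6 for protein entry and 0 to 1 for chaperones outside the ER, and the higher genes 0 to 1 for signalling, ER chaperones, degradation and protein entry. The medians then ranged from -0.00041 to 0.0172 for signalling, -0.0795 to -0.0372 for ER chaperones, -0.0563 to -0.0375 for isomerases, -0.0266 to -0.00133 for degradation, -0.0647 to -0.0406 for N-glycosylation, -0.0541 to -0.0158 for protein entry, and -0.00506 to 0.00877 for chaperones outside the ER. The causes were not tested.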
